A study of Mus musculus with 6 samples.

Results

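Glycolysis and hypoxia response genes were followed across cultures of primary cardiomyocytes in 3 treatment groups: phosphate-buffered saline (PBS), BMP2 alone, and BMP2 plus the receptor inhibitor dorsomorphin (BMP2+DM). The set was a list of 37 gene symbols: glucose and lactate transporters, the enzymes from hexokinase to lactate dehydrogenase, kinases that regulate the pathway, and genes of oxygen sensing and the hypoxia response. A gene was a member if it had at least 10 counts summed over the 6 libraries, and 37 of 37 did, among 32245 gene symbols listed in the count files. All 37 also passed the filter on low counts that left 14378 genes for testing. The cells came from hearts of neonatal wild-type mice, and each treatment had 2 libraries of polyadenylated RNA. BMP2, a secreted ligand, activates receptor kinases that signal to the nucleus through SMAD proteins, and dorsomorphin is a small-molecule inhibitor of BMP receptor kinases that also inhibits AMP-activated protein kinase, an energy sensor. No group received dorsomorphin without BMP2, so a difference between BMP2+DM and BMP2 includes every effect of the compound. The sources used here do not state dose, duration, or the oxygen and glucose supplied to the cells. The labels do not say whether the 2 libraries of a group came from separate cultures, so p-values measure only the spread between these libraries.

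Glycolysis splits glucose into pyruvate in the cytosol, and lactate dehydrogenase then reduces pyruvate to lactate, which leaves the cell through monocarboxylate transporters. The heart relies on glycolysis before birth and turns to fatty acid oxidation in the first days of life, and several enzymes exist as a broadly expressed form and a muscle form. Hypoxia-inducible factor 1 (HIF-1), made of the oxygen-regulated subunit HIF-1α (Hif1a) and its partner ARNT, raises transcription of many of these genes. Prolyl hydroxylases encoded by the Egln genes mark HIF-1α for destruction when oxygen is present, so transcript levels of Hif1a do not report the amount of the protein.

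Each library held between 10106667 and 14366042 counts on genes, and levels are given as CPM, counts relative to the library total after TMM scaling. PBS replicate 1 and BMP2 replicate 1 stood apart in reads on 2 ribosomal-repeat models, Gm42418 with AY036118, which took 1.31% and 2.1% of their gene counts against 0.0702% to 0.0928% in the other libraries, and main counts are given with and without those 2 libraries. The label of cardiomyocytes was checked against 10 markers. All 10 were detected, with a summed level of 34177 to 34606 CPM with PBS, 26295 to 26538 with BMP2 and 29191 to 29493 with BMP2+DM. Markers of other cells were detected too. Those of fibroblasts summed to 15128 to 16137 CPM with PBS, 15839 to 16150.2 with BMP2 and 14075 to 14632 with BMP2+DM, and those of smooth muscle and pericytes to 3015 to 3068 CPM with PBS, 1859 to 1919.7 with BMP2 and 1970.1 to 2049 with BMP2+DM. Endothelial markers summed to 545 to 552 CPM with PBS, 498 to 516 with BMP2 and 348 to 390.0 with BMP2+DM, epicardial and mesothelial markers to 174 to 177 CPM with PBS, 100.2 to 101 with BMP2 and 107 to 110.1 with BMP2+DM, and leukocyte markers to 92.6 to 94.4 CPM with PBS, 69.3 to 70.6 with BMP2 and 63.2 to 67 with BMP2+DM, with every gene of these 5 lists detected. Erythroid markers summed to 0.174 to 1.21 CPM over the 6 libraries, with Hba-a2 at 0 counts. In bulk RNA, fewer cells of a type and less RNA per cell cannot be told apart.

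Levels of different genes were compared per kilobase of exon (RPKM). With PBS, Gapdh had the highest level of the 37, at 502 ± 17.4 RPKM (SD, n = 2), followed by Ldha (315 ± 4.06), Pgk1 (298 ± 2), Aldoa (287 ± 1.58) and Pkm (279 ± 2.1). The PBS libraries of neighbours in this order did not overlap. Eno1 (191 ± 4.5), Tpi1 (185 ± 2) and the muscle forms Pgam2 (184 ± 7.17) and Eno3 (177 ± 6.15) came next, and the libraries of Pgam2 overlapped those of each of the other 3. The hexokinases, which phosphorylate glucose at the entry of the pathway, lay far lower, at 31.9 ± 1.44 RPKM for Hk1 and 21.6 ± 2.67 for Hk2. For phosphofructokinase, the main point of control, the muscle subunit gene Pfkm had the highest RPKM (43.9 ± 0.811). In CPM, Pfkp was higher, at 248 against 147 for Pfkm. The RPKM order thus turns on exon lengths summed over all annotated transcripts, 13401 bases for Pfkp and 3340 for Pfkm. The glucose transporters were at 19.9 ± 0.0281 RPKM for Slc2a1 and 12.8 ± 0.786 for Slc2a4. At the lower end, Ankrd37, Aldoc, Car9, Pfkfb4 and Ndrg1 each had a mean of at most 1.33 RPKM, and the first 3 had 1 to 44 counts per library. Reads with several alignments are on a summary line of the files and not on genes, which bears on genes with processed pseudogenes. Of the 100-base words of the longest protein-coding transcript, 78% for Gapdh, 67% for Pgk1, 59% for Eno1, 39.7% for Pgam1, 33.5% for Bnip3 and 32.4% for Higd1a also occur in transcripts of other genes, so their levels are uncertain. Counts per gene do not separate splice forms, such as the M1 and M2 forms of pyruvate kinase from Pkm.

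BMP2 against PBS asks which of these transcripts BMP2 changes. Glycolytic enzymes rose together by small steps: 15 of 18 rose and 0 fell in edgeR and in DESeq2 (0 lower also at an unadjusted p below 0.05), with a median log2 fold change of 0.28. Among all 37 members 18 rose (48.6%) and 4 fell (10.8%), with a median of 0.23, where 15.8% of all tested genes were called, 6.55% as higher and 9.29% as lower, with a median of 0.00 (edgeR, adjusted p below 0.05). Well-expressed genes are called more often. Of the 2174 genes with a mean of at least 100 CPM, a cutoff chosen after the values were seen, 36.4% were called, 17% as higher and 19.4% as lower, and of the 21 members at that level 16 rose and 3 fell. The summed level of the 18 enzymes was 10154 and 9909 CPM with PBS, 12313 and 12392 with BMP2, and 10829 and 11129 with BMP2+DM. Both BMP2 libraries lay above both PBS libraries, with the BMP2+DM libraries in between.

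Pgam1, which encodes the broadly expressed phosphoglycerate mutase, had the greatest rise of the enzymes. Its levels were 158 and 163 CPM with PBS, 214 and 256 with BMP2, and 191 and 219 with BMP2+DM. The PBS libraries lay closest together and the groups PBS and BMP2 did not overlap, although the BMP2 libraries differed from each other. The log2 fold change was 0.55 ± 0.08, or 1.47-fold (edgeR adjusted p = 9.81e-05). Lactate dehydrogenase rose in both subunits. Ldhb, the heart-type subunit that favours lactate oxidation, was at 188 and 196 CPM with PBS, 253 and 254 with BMP2, and 285 and 298 with BMP2+DM. The 3 groups did not overlap, with PBS lowest, and the change was 0.40 ± 0.06 with BMP2 (adjusted p = 5.57e-05). Ldha, the muscle-type subunit that favours lactate formation, was at 1034 and 1053 CPM with PBS, 1283 and 1292 with BMP2, and 951 and 1002 with BMP2+DM. Of the 3 groups, both BMP2 libraries were the highest, by 0.30 ± 0.05 (adjusted p = 0.000399).

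The other enzymes that rose spanned the whole pathway. Gpi1, phosphoglucose isomerase, went from 510.3 ± 33.8 to 666 ± 35.4 CPM (SD, n = 2), which is 0.38 ± 0.06 on the log2 scale. Gapdh, often used as a reference gene, went from 2075 ± 72.1 to 2603 ± 52 CPM (0.33 ± 0.05, adjusted p = 7.39e-05). Aldoa, Tpi1 and Pgk1, the aldolase, triose phosphate isomerase and phosphoglycerate kinase genes, changed by 0.29 ± 0.05, 0.29 ± 0.05 and 0.28 ± 0.05. Pkm, which makes pyruvate, went from 1397 ± 10.5 to 1750.3 ± 37 CPM (0.32 ± 0.05), and Eno1, the broadly expressed enolase, from 1029 ± 24.2 to 1220.4 ± 10.04 CPM (0.25 ± 0.05). Rises in Hk1 (0.22 ± 0.06), the phosphofructokinase subunit genes Pfkl (0.26 ± 0.07), Pfkm (0.30 ± 0.07) and Pfkp (0.23 ± 0.05), and the muscle enolase gene Eno3 (0.21 ± 0.06) passed the test with all libraries but lost it without single ones. Hk1 was at 0.17 without PBS replicate 2 and 0.19 without BMP2 replicate 2. Pfkl was at 0.24 to 0.28 without any 1 of the 4 libraries compared. Pfkm was at 0.28 without PBS replicate 1 and 0.24 without BMP2 replicate 2, and Pfkp at 0.22 without BMP2 replicate 2. Eno3 was at 0.25 without PBS replicate 1, 0.18 without PBS replicate 2 and 0.14 without BMP2 replicate 2.

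Hk2 (0.07 ± 0.10), the insulin-regulated hexokinase, and Pgam2 (0.15 ± 0.07), the muscle mutase, did not pass, nor did Aldoc (−0.49 ± 0.54), whose counts were 31 and 26 with PBS, 12 and 22 with BMP2, and 18 and 44 with BMP2+DM. Without the 2 libraries high in ribosomal-repeat reads, 7 of 18 enzymes were still called higher, with 1 library left in each of PBS and BMP2, so that the spread is that of the BMP2+DM pair. The enzymes were Gpi1, Aldoa, Gapdh, Pgam1, Eno1, Pkm and Ldha, at 0.26 (Eno1) to 0.65 (Pgam1). Against a minimum fold of 1.2, 2 of 18 enzymes passed. Cardiomyocyte markers moved the other way in the same comparison, with 9 of 10 lower. Of the other lists, fibroblast markers were higher in 2 and lower in 6 of 10, endothelial markers in 1 and 1 of 10, smooth muscle and pericyte markers in 2 and 4 of 8, and epicardial and mesothelial markers were lower in 6 of 8 and leukocyte markers in 1 of 6. Their part in these results was not tested.

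**Figure D1:**
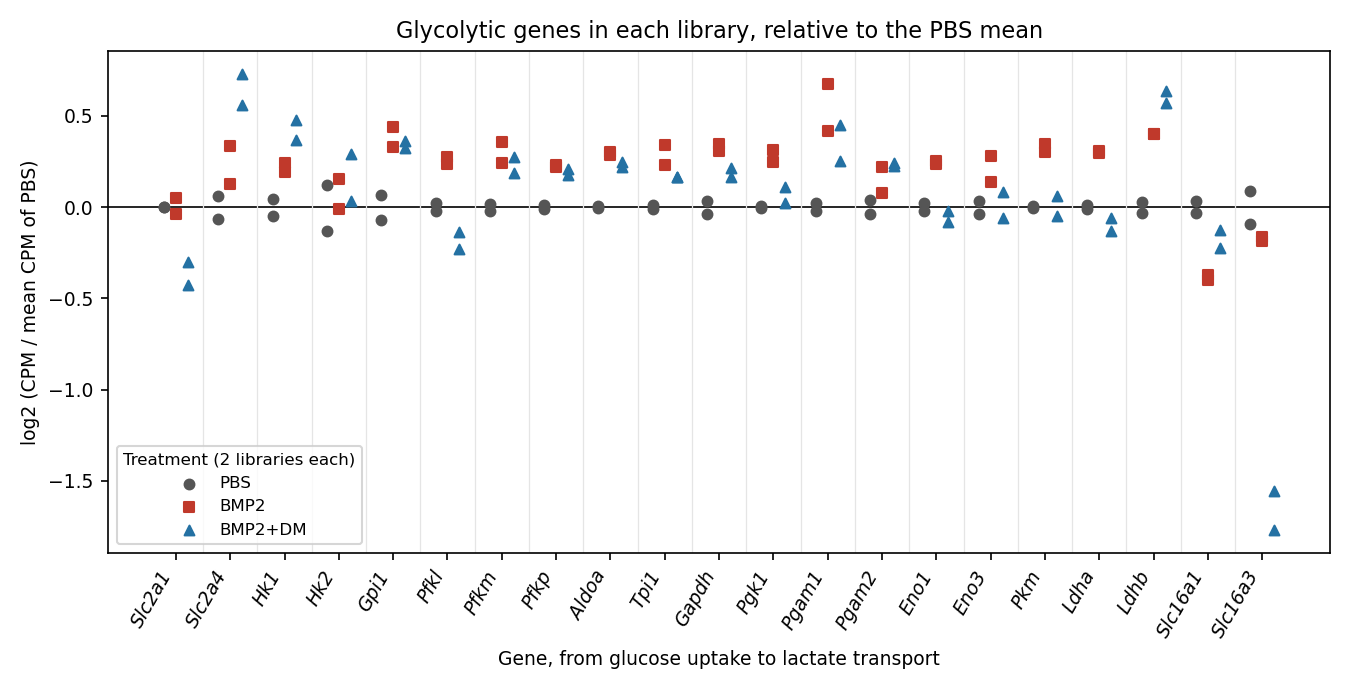
Level of 21 glycolytic and transport genes (17 enzymes, without the low-count Aldoc, and 4 transporters) in each library, as log2 of CPM over the mean CPM of PBS (y axis), in order from glucose uptake to lactate transport (x axis). Each point is 1 library, with 2 per treatment. BMP2 points of the plotted enzymes lie above 0 except 1 of Hk2, BMP2+DM points of Pfkl, Eno1 and Ldha lie below 0, and those of Slc16a3 lie lowest, at 22.8 and 26.3 CPM.

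The transporters did not follow the enzymes with BMP2: of 4, only Slc16a1 passed, and it fell. Slc16a1, the monocarboxylate transporter MCT1 that carries lactate in both directions, was at 172 and 180.5 CPM with PBS, 136 and 133 with BMP2, and 162 and 151 with BMP2+DM. Both BMP2 libraries were the lowest, and the change was −0.39 ± 0.07 (adjusted p = 0.000553). It was at −0.44 to −0.35 over the 14 alternatives. The call was lost without the 2 libraries high in ribosomal-repeat reads and against a minimum fold of 1.2. Slc16a3, the lactate exporter MCT4 of glycolytic cells, changed by −0.18 ± 0.10 and did not pass. Slc2a1, the basal glucose transporter GLUT1, was at 0.01 ± 0.10, and Slc2a4, the insulin-regulated GLUT4 of muscle and fat, at 0.23 ± 0.11, and neither passed. Of the 3 regulatory kinases, 0 passed in edgeR or DESeq2, and 1 had an unadjusted edgeR p below 0.05. They were Pdk1 (0.25 ± 0.11), which restrains pyruvate dehydrogenase, and Pfkfb3 (−0.18 ± 0.16) and Pfkfb4 (−0.24 ± 0.32), which make the allosteric activator of phosphofructokinase. For Pfkfb3 the BMP2 libraries disagreed, at 21.4 and 31.5 CPM around the PBS values of 30.4 and 29.3.

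Genes of oxygen sensing rose in 2 of 3. Hif1a was at 308 and 334 CPM with PBS, 428 and 426 with BMP2, and 474 and 424 with BMP2+DM. All 4 libraries given BMP2 lay above both PBS libraries, with a log2 fold change of 0.41 ± 0.06 with BMP2 (adjusted p = 3.89e-05). Without the 2 libraries high in ribosomal-repeat reads it was at 0.35 and not called. Egln3, the prolyl hydroxylase PHD3 that is itself induced by HIF-1, was at 34.7 and 31.9 CPM with PBS, 43.2 and 47.2 with BMP2, and 31.1 and 34.8 with BMP2+DM. Both BMP2 libraries were the highest (0.44 ± 0.12, adjusted p = 0.0202), and the call was lost at 0.50 without PBS replicate 1, 0.38 without PBS replicate 2 and 0.37 without BMP2 replicate 2. Egln1, the main oxygen sensor PHD2, changed by −0.21 ± 0.09 and did not pass.

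The 9 hypoxia-induced effectors moved in both directions, with 1 higher, 3 lower and a median of −0.20. Adm, which encodes the vasodilator peptide adrenomedullin, was at 137 and 145 CPM with PBS, 83.4 and 85.3 with BMP2, and 128 and 133 with BMP2+DM. The BMP2 libraries were lowest by far, at 1.68-fold lower (−0.75 ± 0.07, adjusted p = 1.35e-06), the greatest fall of the called members, and the call held in all 14 alternatives. The gene lies at chr7:110627661-110629820, plus strand (mm10). P4ha1 and P4ha2, the catalytic subunits of collagen prolyl hydroxylase, changed by −0.20 ± 0.05 and −0.36 ± 0.10. P4ha1 lost its call at −0.19 without PBS replicate 1, −0.21 without PBS replicate 2 and −0.16 without BMP2 replicate 2, and P4ha2 at −0.39 to −0.33 without any 1 of the 4 libraries compared. Ddit4, the mTOR inhibitor REDD1, went the other way, at 52.3 and 44 CPM with PBS, 69.5 and 69.98 with BMP2, and 39.6 and 41 with BMP2+DM. The BMP2 libraries again stood above the other 4 (1.45-fold, 0.53 ± 0.11, adjusted p = 0.00223). The call was lost at 0.42 without PBS replicate 2 and at 0.67 without the 2 libraries high in ribosomal-repeat reads. Bnip3 (−0.08 ± 0.13), a mitophagy receptor, Higd1a (0.27 ± 0.13), a mitochondrial inner membrane protein, and Ndrg1 (−0.60 ± 0.24) did not pass. Car9, the tumour-associated carbonic anhydrase and a classical hypoxia marker, had counts of 23 and 19 with PBS, 3 and 6 with BMP2, and 9 and 15 with BMP2+DM. Its change of −1.94 ± 0.71 did not pass (adjusted p = 0.0725). Ankrd37 had counts of 5 and 9 with PBS, 11 and 20 with BMP2, and 8 and 1 with BMP2+DM, too few for a firm value. Endothelial and smooth muscle cells also express Adm. Smooth muscle and pericyte markers summed to 3015 to 3068 CPM with PBS, 1859 to 1919.7 with BMP2 and 1970.1 to 2049 with BMP2+DM. With BMP2 against PBS, 2 of these 8 markers were higher and 4 lower, and of 10 endothelial markers 1 was higher and 1 lower. The part of these cells in the change of Adm was not tested.

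BMP2+DM against BMP2 asks which transcripts of BMP2-treated cells change when the receptor inhibitor is added. Among the members 9 fell (24.3%) and 4 rose (10.8%), with a median of −0.06, where 8.73% of all tested genes were called, 4.44% as lower and 4.28% as higher. At a mean of at least 100 CPM, 22.2% of genes were called, 11.8% as lower and 10.4% as higher, and of the 21 members at that level 5 fell and 3 rose. Slc16a3, the lactate exporter MCT4, had the greatest fall of the called members. Its levels were 82.5 and 72.6 CPM with PBS, 69.3 and 68.2 with BMP2, and 22.8 and 26.3 with BMP2+DM, from 762 and 714 counts with BMP2 and 235 and 271 with BMP2+DM. Both BMP2+DM libraries lay far below the other 4, at 2.8-fold lower than with BMP2 (−1.49 ± 0.12, adjusted p = 1.76e-07), and the call held in all 14 alternatives. The gene lies at chr11:120948480-120960868, plus strand (mm10).

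Among the enzymes 5 of 18 fell and 2 rose, with a median of −0.10. Those that fell were Pfkl, the liver-type phosphofructokinase subunit (−0.44 ± 0.07), and 4 genes of the lower pathway: Ldha (−0.40 ± 0.05), Pkm (−0.32 ± 0.05), Eno1 (−0.30 ± 0.05) and Pgk1 (−0.21 ± 0.05). Pfkl was at 127 and 123 CPM with PBS, 147 and 151 with BMP2, and 107 and 114 with BMP2+DM, and its BMP2+DM libraries lay below both other groups. Pkm was at 1405 and 1389.9 CPM with PBS, 1777 and 1724 with BMP2, and 1351 and 1460.0 with BMP2+DM, with the BMP2+DM libraries on either side of the PBS level. Eno1 was at 1046 and 1012 CPM with PBS, 1227 and 1213 with BMP2, and 973 and 1012 with BMP2+DM. Without the 2 libraries high in ribosomal-repeat reads, Pfkl, Ldha, Pkm and Eno1 were still called and Pgk1 was not. Pgk1 also lost its call at −0.18 without BMP2 replicate 1 and −0.17 without BMP2+DM replicate 2. Against a minimum fold of 1.2 (glmTreat of edgeR), 0 of 18 enzymes passed as lower and 2 had an unadjusted p below 0.05, while DESeq2 without that minimum called 6 lower. The 2 that rose were Ldhb (0.20 ± 0.06) and Hk1 (0.21 ± 0.05). Ldhb lost its call at 0.20 without BMP2 replicate 1, 0.20 without BMP2 replicate 2 and 0.17 without BMP2+DM replicate 2, and Hk1 at 0.18 without BMP2 replicate 1, 0.23 without BMP2 replicate 2 and 0.15 without BMP2+DM replicate 1. Enzymes of the middle of the pathway did not pass, with Gpi1 at −0.04 ± 0.06, Aldoa at −0.06 ± 0.05, Tpi1 at −0.12 ± 0.05 and Gapdh at −0.14 ± 0.05. Pgam1 (−0.20 ± 0.08) and Eno3 (−0.20 ± 0.06, adjusted p = 0.0502) did not pass either, nor did Hk2 (0.09 ± 0.10), Pfkm (−0.07 ± 0.07), Pfkp (−0.03 ± 0.05), Pgam2 (0.09 ± 0.07) and Aldoc (0.92 ± 0.53).

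The glucose transporters moved in opposite directions. Slc2a1 (GLUT1) was at 69.7 and 69.8 CPM with PBS, 72.2 and 67.9 with BMP2, and 51.9 and 56.6 with BMP2+DM, lowest in the BMP2+DM libraries (−0.37 ± 0.10, adjusted p = 0.0239). Slc2a4 (GLUT4) was at 46.5 and 42.7 CPM with PBS, 48.6 and 56.1 with BMP2, and 65.8 and 74 with BMP2+DM, highest in the BMP2+DM libraries (0.42 ± 0.11, adjusted p = 0.0243). Neither call held without single libraries, with Slc2a1 at −0.32 without BMP2 replicate 1, −0.41 without BMP2 replicate 2 and −0.31 without BMP2+DM replicate 1, and Slc2a4 at 0.32 without BMP2 replicate 1 and 0.33 without BMP2+DM replicate 2. Adm rose by 0.63 ± 0.08 (adjusted p = 2.57e-05) and Ddit4 fell, with a change of −0.79 ± 0.11 (adjusted p = 0.000165), both in all 14 alternatives. Egln3 changed by −0.46 ± 0.12 and lost its call at −0.52 without BMP2 replicate 1, −0.39 without BMP2 replicate 2 and −0.38 without BMP2+DM replicate 1, and in DESeq2 (adjusted p = 0.0554). Hif1a was not called, at 0.07 ± 0.06. Slc16a1 (0.21 ± 0.07), Pfkfb3 (−0.45 ± 0.17), P4ha1 (−0.17 ± 0.05), P4ha2 (0.22 ± 0.10) and Car9 (1.45 ± 0.75) did not pass. The remaining members without a call were Pdk1 (−0.11 ± 0.11), Pfkfb4 (0.05 ± 0.33), Bnip3 (0.14 ± 0.13), Egln1 (0.02 ± 0.09), Ankrd37 (−1.71 ± 0.86), Ndrg1 (0.34 ± 0.25) and Higd1a (0.06 ± 0.13). In this comparison 4 of 10 cardiomyocyte markers rose, 4 of 10 endothelial markers fell, and of 10 fibroblast markers 3 rose and 5 fell. Smooth muscle and pericyte markers rose in 3 and fell in 2 of 8, epicardial and mesothelial markers rose in 3 and fell in 1 of 8, and 1 of 6 leukocyte markers fell. Their part in these results was not tested.

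**Figure D2:**
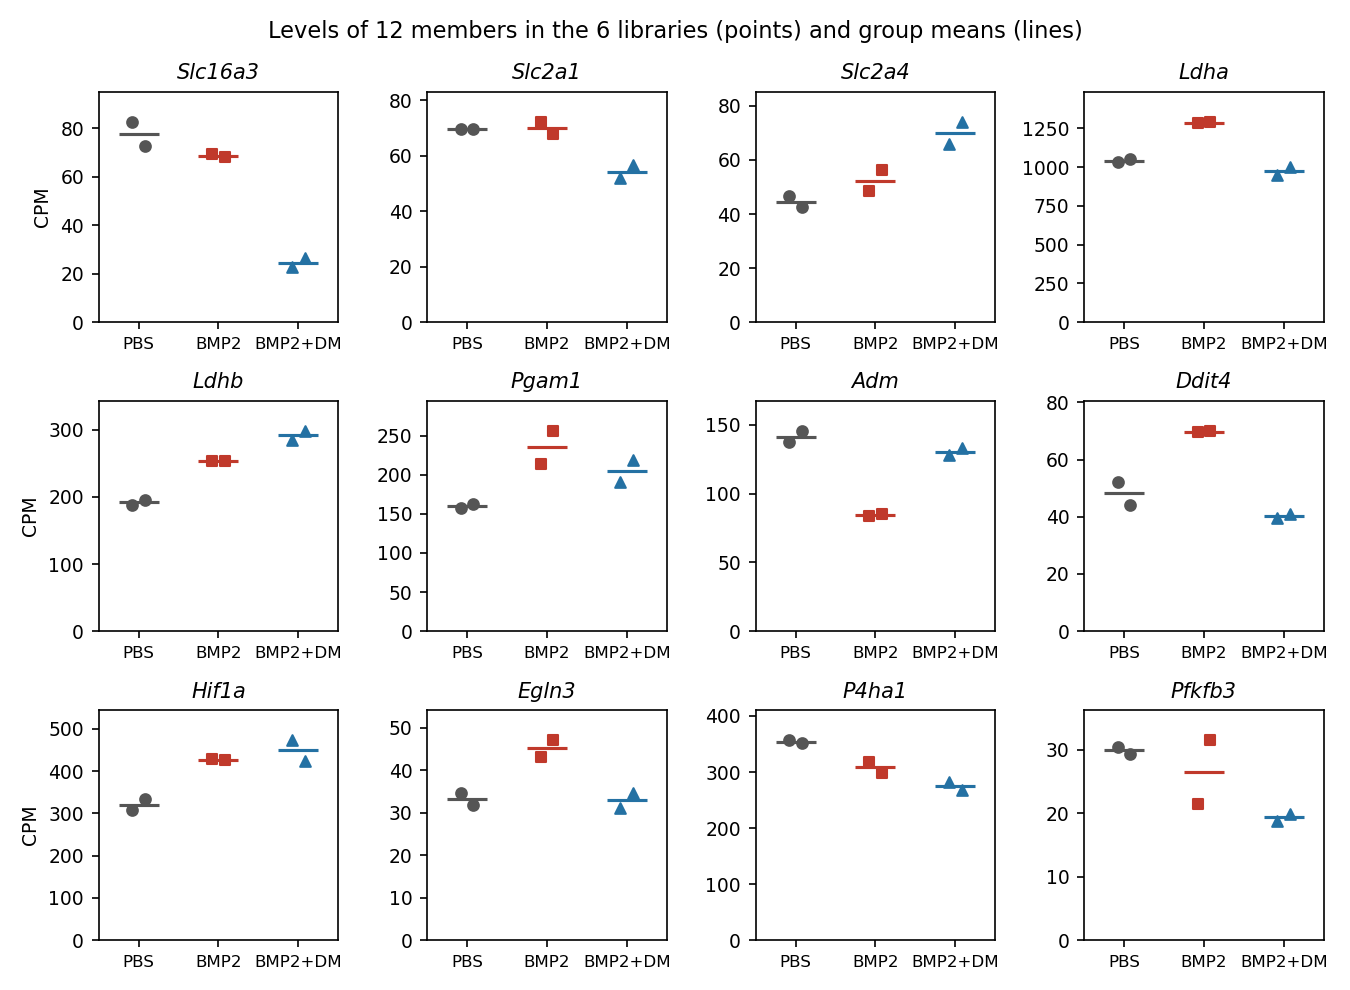
Levels of 12 members as CPM (y axis, from 0) in the 6 libraries by treatment (x axis); points are libraries and lines are means of 2. Slc16a3 is lowest with BMP2+DM and Adm with BMP2, Ddit4, Egln3 and Ldha are highest with BMP2, and Hif1a and Ldhb are higher in both groups given BMP2 than with PBS.

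**Figure D3:**
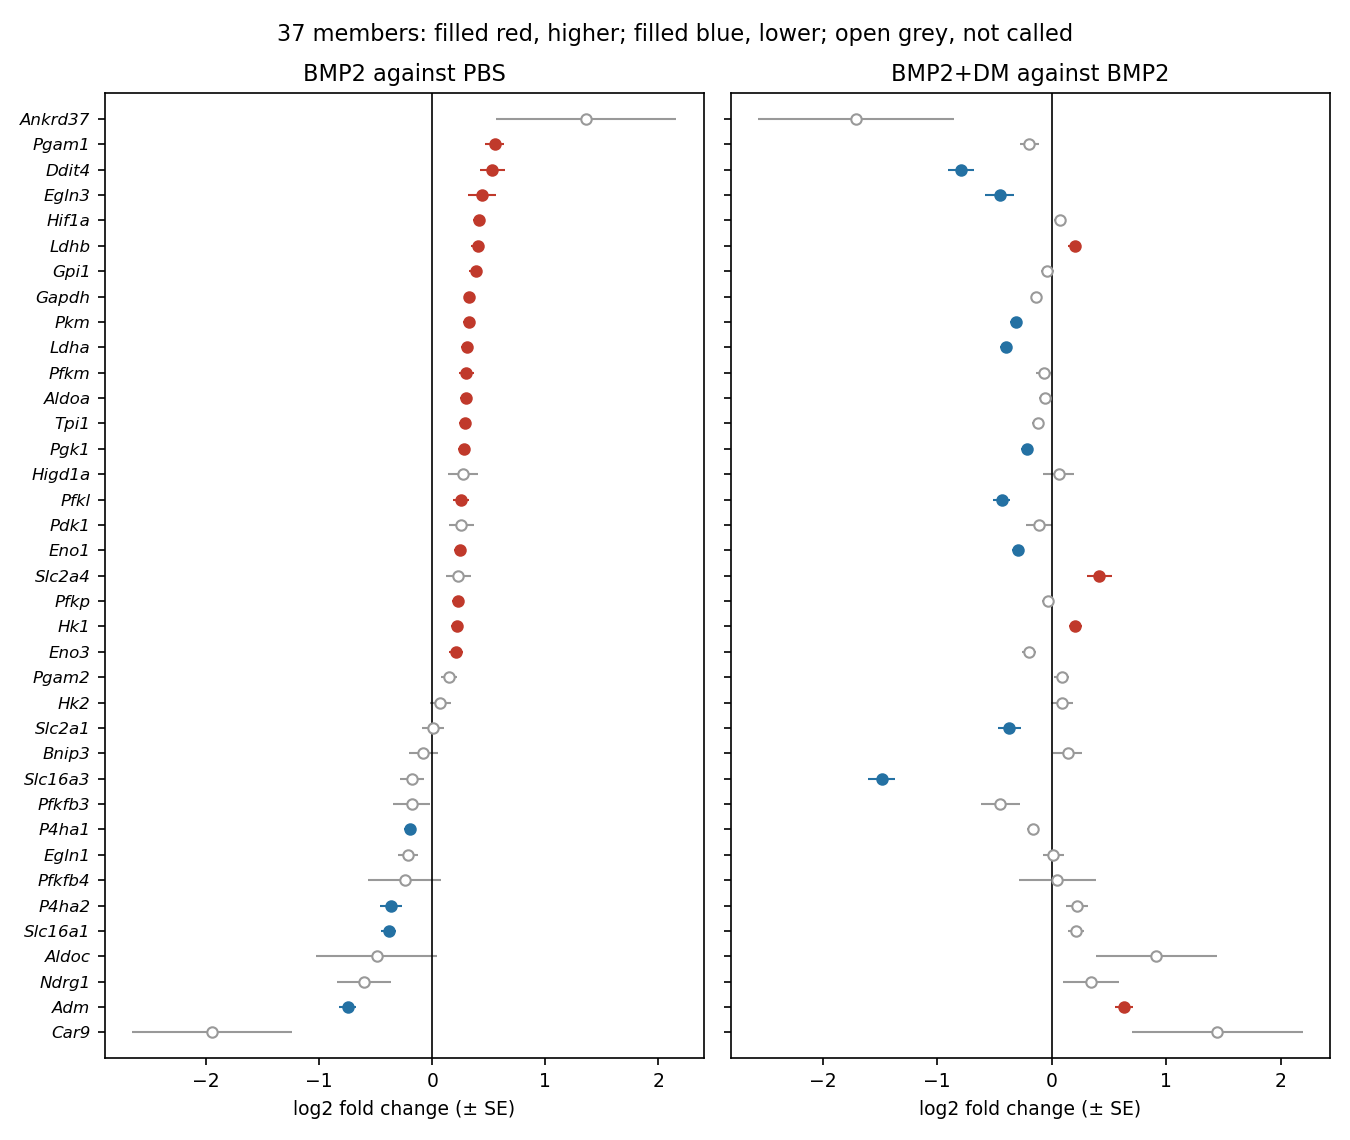
Log2 fold change with its standard error (x axis) of all 37 members (y axis, ordered by BMP2 against PBS) in the 2 comparisons, which share the BMP2 libraries. Filled points passed the test, 22 on the left and 13 on the right; the widest bars belong to Ankrd37, Car9 and Aldoc, the members with the fewest counts.

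Paralogs of the same step were set against each other as shares of their summed RPKM in each library, as a description. The share of Ldhb among lactate dehydrogenase transcripts was 27.7% and 28.2% with PBS, 29.4% and 29.3% with BMP2, and 38.7% and 38.5% with BMP2+DM. It was alike within each group and higher with BMP2+DM. The share of Slc16a3 among the 2 lactate transporters was 28.5% and 25.1% with PBS, 29.7% and 29.8% with BMP2, and 10.5% and 12.7% with BMP2+DM, lowest in both BMP2+DM libraries. The share of Slc2a4 among the 2 glucose transporters was 40.2% and 38.1% with PBS, 40.4% and 45.5% with BMP2, and 56.1% and 56.9% with BMP2+DM. Slc2a4 exceeded Slc2a1 only in the BMP2+DM libraries. Among the 3 phosphofructokinase genes, the share of Pfkl was 23.4% and 22.7% with PBS, 23.1% and 22.5% with BMP2, and 17.8% and 19.3% with BMP2+DM. It was lowest in the BMP2+DM libraries. Among the phosphoglycerate mutase genes, the share of Pgam1 was 29.7% and 31.5% with PBS, 35.8% and 37.7% with BMP2, and 30.7% and 34% with BMP2+DM, and among the 2 prolyl hydroxylases that of Egln3 was 34% and 31.2% with PBS, 42.7% and 43.7% with BMP2, and 33.1% and 37.8% with BMP2+DM. Both shares were highest in the BMP2 libraries. Over the 6 libraries Hk2 took 34.9% to 41.6% of hexokinase, Eno3 46% to 49.9% of enolase, P4ha2 11.5% to 16.6% of the prolyl hydroxylase subunits and Aldoc at most 0.383% of aldolase. The size of a share depends on annotated exon lengths. For enolase these were 5379 bases for Eno1 and 1739 for Eno3, with PBS means of 1029 and 307 CPM. Of the 100-base words of Eno1, 59% also occur in other genes, against 0% for Eno3, so the enolase share is uncertain. The share of Pgam1 is uncertain in the same way, with 39.7% of its words in other genes against 0% for Pgam2. Exon lengths of these 2 genes were 1982 and 840 bases. An exact permutation test of 2 against 2 libraries cannot go below p = 0.333 (two-sided), so shares were not tested.

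**Figure D4:**
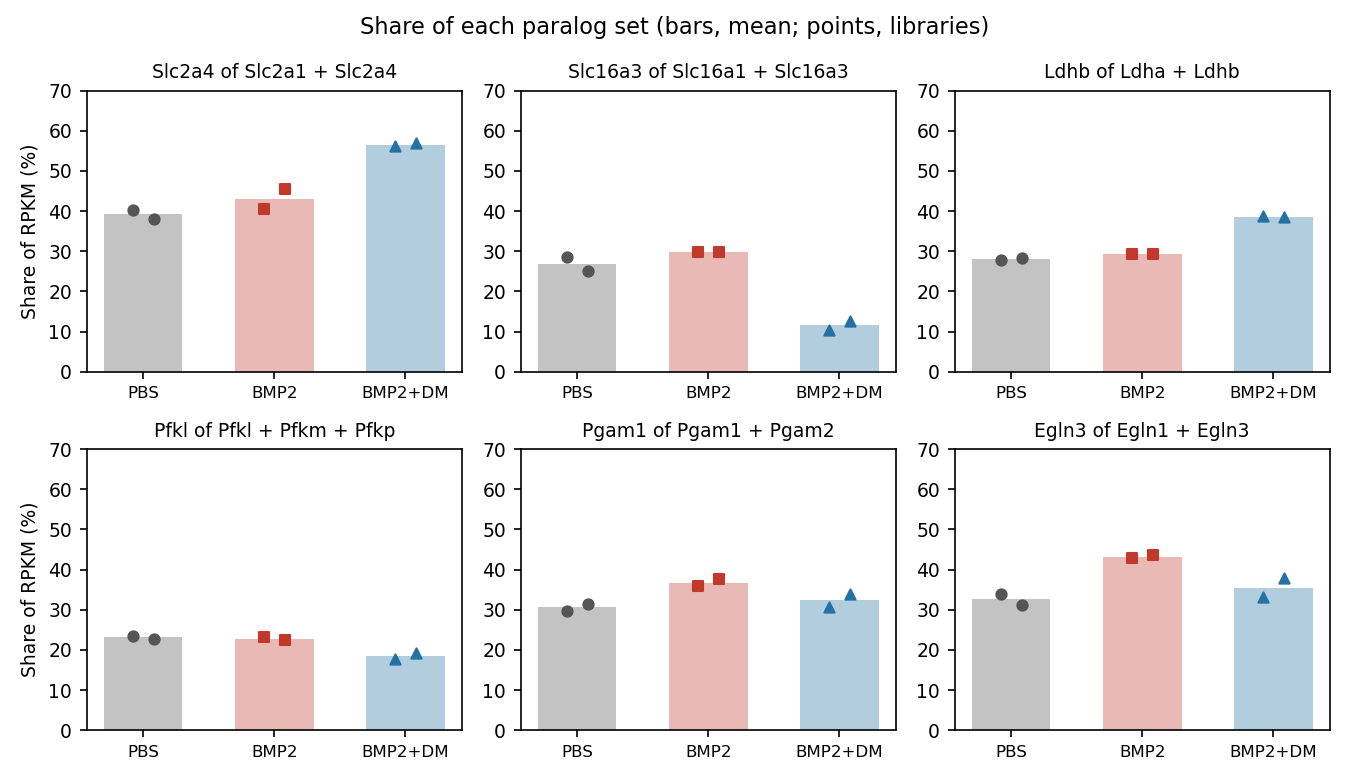
Share of 1 paralog in the summed RPKM of its set (y axis, percent, from 0) by treatment (x axis); bars are means of 2 libraries and points are libraries. Slc2a4 and Ldhb take their largest share with BMP2+DM and Slc16a3 and Pfkl their smallest, while Pgam1 and Egln3 take their largest share with BMP2.

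Promoters are shown for 5 of the 9 members that fell with BMP2+DM against BMP2, because HIF-1 is known to bind the core hypoxia response element. Adm, which rose, stands beside them, and these 6 were chosen after their values were seen. The other 4 that fell are not printed: Slc2a1 and Ddit4 had 2 matches each, Pfkl had 1, and of the 2 promoters of Pkm 1 had 1 match and the other had 0. Where a printed gene has several starts, the most upstream is shown. The 250 bases before the transcription start come from RefSeq (GRCm38.p6, the mm10 assembly) and are written 5′ to 3′ on the gene's strand, with matches to ACGTG or GCGTG on either strand in capitals. The letters CACGTG hold ACGTG on both strands and count as 2 matches. They lie at chr11:120948817-120949066 (plus strand) for Slc16a3, chr7:46845554-46845803 (plus strand) for Ldha, chrX:106186850-106187099 (plus strand) for Pgk1, chr4:150236458-150236707 (plus strand) for Eno1, chr12:54203875-54204124 (minus strand) for Egln3 and chr7:110627407-110627656 (plus strand) for Adm.
Slc16a3: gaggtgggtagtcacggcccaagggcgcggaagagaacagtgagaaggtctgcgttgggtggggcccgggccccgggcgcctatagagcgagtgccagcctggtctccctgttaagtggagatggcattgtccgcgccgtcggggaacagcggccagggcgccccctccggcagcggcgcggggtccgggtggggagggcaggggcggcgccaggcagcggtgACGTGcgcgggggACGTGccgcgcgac
Ldha: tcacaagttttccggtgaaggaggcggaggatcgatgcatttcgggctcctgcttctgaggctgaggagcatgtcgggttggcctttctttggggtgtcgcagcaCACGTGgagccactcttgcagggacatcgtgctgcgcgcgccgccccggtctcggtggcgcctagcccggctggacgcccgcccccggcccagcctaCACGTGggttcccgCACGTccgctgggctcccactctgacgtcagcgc
Pgk1: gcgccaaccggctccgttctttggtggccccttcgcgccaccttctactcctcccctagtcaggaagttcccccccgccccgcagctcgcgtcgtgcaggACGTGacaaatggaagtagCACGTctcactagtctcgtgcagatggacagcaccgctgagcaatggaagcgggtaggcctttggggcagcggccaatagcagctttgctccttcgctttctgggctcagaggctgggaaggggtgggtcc
Eno1: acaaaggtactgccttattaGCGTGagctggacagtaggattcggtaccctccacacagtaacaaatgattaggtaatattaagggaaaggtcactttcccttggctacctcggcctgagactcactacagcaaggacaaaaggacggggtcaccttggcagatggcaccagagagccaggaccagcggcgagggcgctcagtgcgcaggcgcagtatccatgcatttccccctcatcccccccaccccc
Egln3: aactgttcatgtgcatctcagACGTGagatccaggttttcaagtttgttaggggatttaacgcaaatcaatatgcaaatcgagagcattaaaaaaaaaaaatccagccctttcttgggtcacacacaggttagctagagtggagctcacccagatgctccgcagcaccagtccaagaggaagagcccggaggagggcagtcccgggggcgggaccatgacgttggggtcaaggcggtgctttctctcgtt
Adm: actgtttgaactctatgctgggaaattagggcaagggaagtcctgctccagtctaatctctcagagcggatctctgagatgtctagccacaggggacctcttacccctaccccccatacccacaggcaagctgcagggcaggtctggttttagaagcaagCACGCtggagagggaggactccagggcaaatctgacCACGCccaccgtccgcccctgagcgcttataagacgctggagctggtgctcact
Slc16a3 had 2 matches, starting 27 and 14 bases before the start site, Ldha 5, Pgk1 2, Eno1 1, Egln3 1 and Adm 2. The further start of Ldha had 1 match, and the 2 further starts of Eno1 had 2 each. The table held promoters for 35 of 37 members (Slc2a4 and Ndrg1 were not matched), 48 promoters in all because some genes have several starts. Of these, 40 (83.3%) held a match to either core, against 38.6% of 32851 promoters of all genes. ACGTG occurred in 47.9% against 16.6%, and GCGTG in 58.3% against 28.2%. Many members are on the list because they are known HIF targets, and some contribute several promoters, so the shares were not tested. Both cores hold the letters CG, and the promoters of all genes were not matched to those of members in base composition. Among member promoters the share of G and C ran from 36.4% for 1 of Pfkm to 86% for Egln1. A match describes the letters and not binding. Matches were present in promoters of members that fell with dorsomorphin (Slc16a3), that rose (Adm) and that were not called (Hk2).

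The third comparison, BMP2+DM against PBS, gives the difference from PBS with both agents present and shares its libraries with the comparisons above. Of the 37 members 12 rose (32.4%) and 4 fell (10.8%), with a median of 0.01, where 20.9% of all tested genes were called, 9.38% as higher and 11.5% as lower. At a mean of at least 100 CPM, 42.9% of genes were called, 19.8% as higher and 23% as lower, and of the 21 members at that level 11 rose and 1 fell. Enzymes rose in 10 of 18 and fell in 0 (0 in DESeq2, and 1 at an unadjusted edgeR p below 0.05). Ldhb (0.60 ± 0.06), Hk1 (0.42 ± 0.05), Gpi1 (0.34 ± 0.06), Pgam1 (0.36 ± 0.08), Pgam2 (0.23 ± 0.07), Aldoa (0.23 ± 0.05), Pfkm (0.23 ± 0.07), Gapdh (0.19 ± 0.05), Pfkp (0.19 ± 0.05) and Tpi1 (0.17 ± 0.05) were above PBS. The enzymes not called were Ldha (−0.10 ± 0.05), Eno1 (−0.05 ± 0.05), Pkm (0.01 ± 0.05), Eno3 (0.01 ± 0.06), Pgk1 (0.07 ± 0.05), Pfkl (−0.18 ± 0.07), Hk2 (0.16 ± 0.10) and Aldoc (0.42 ± 0.51). Calls that were lost without single libraries were those of Gapdh (0.16 without PBS replicate 2), Pgam1 (0.25 without BMP2+DM replicate 2), Pfkp (0.18 without PBS replicate 2 and 0.18 without BMP2+DM replicate 2), Pfkm (0.21 without PBS replicate 1, 0.25 without PBS replicate 2 and 0.18 without BMP2+DM replicate 1), Pgam2 (0.20 without PBS replicate 2, 0.22 without BMP2+DM replicate 1 and 0.24 without BMP2+DM replicate 2) and Tpi1 (0.16 to 0.18 without any 1 of the 4 libraries compared).

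Slc16a3 was 3.16-fold lower than with PBS (−1.66 ± 0.12, adjusted p = 7.87e-09) and Slc2a4 1.57-fold higher (0.65 ± 0.11, adjusted p = 0.000338). Hif1a stayed above PBS (0.49 ± 0.06, adjusted p = 4.31e-06), while Adm (−0.12 ± 0.07), Ddit4 (−0.26 ± 0.11) and Egln3 (−0.02 ± 0.13) were not called. P4ha1 was lowest here, at 357 and 352 CPM with PBS, 318 and 298 with BMP2, and 282 and 268 with BMP2+DM (−0.37 ± 0.05, adjusted p = 5.9e-05). The groups did not overlap. Slc2a1 (−0.36 ± 0.10) and Pfkfb3 (−0.63 ± 0.17) also fell, with calls lost for Slc2a1 at −0.37 without PBS replicate 1, −0.36 without PBS replicate 2 and −0.31 without BMP2+DM replicate 1 and for Pfkfb3 at −0.60 without PBS replicate 1, −0.65 without PBS replicate 2 and −0.59 without BMP2+DM replicate 1. Members of the transport, regulatory and hypoxia groups that were not called here also included Slc16a1 (−0.17 ± 0.07), Pdk1 (0.14 ± 0.11), Pfkfb4 (−0.19 ± 0.32), Bnip3 (0.06 ± 0.12), Egln1 (−0.20 ± 0.09), Ankrd37 (−0.35 ± 0.94), Car9 (−0.50 ± 0.61), P4ha2 (−0.14 ± 0.10), Ndrg1 (−0.26 ± 0.24) and Higd1a (0.33 ± 0.13). Cardiomyocyte markers were lower in 7 of 10, endothelial markers in 6 of 10, epicardial and mesothelial markers in 5 of 8 and leukocyte markers in 2 of 6. Fibroblast markers were higher in 3 and lower in 6 of 10, and smooth muscle and pericyte markers in 2 and 3 of 8. Their part in these results was not tested.

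Other genes of the same pathways came from 4 further lists. Their counts stand beside the shares called among all tested genes. These were 15.8% with BMP2 against PBS, 8.73% with BMP2+DM against BMP2 and 20.9% with BMP2+DM against PBS. At a mean of at least 100 CPM they were 36.4%, 22.2% and 42.9%. A count near such a share shows nothing particular to its list. Pyruvate entry into mitochondria, the alternative to lactate, had 6 of 13 genes higher and 1 lower with BMP2 against PBS (median 0.23). Dlat (0.40 ± 0.06), Dld (0.36 ± 0.05) and Pdha1 (0.31 ± 0.05), subunits of the pyruvate dehydrogenase complex, rose. Over the 14 alternatives Dlat was at 0.36 to 0.44, Dld at 0.33 to 0.38 and Pdha1 at 0.25 to 0.37. Against a minimum fold of 1.2, 0 of 13 genes passed as higher and 0 as lower. Dld and Pdha1 also lost their calls without the 2 libraries high in ribosomal-repeat reads. The 1 lower gene was Pdk2 (−0.43 ± 0.11), named after its value was seen, which lost its call at −0.36 without PBS replicate 1 and −0.35 without BMP2 replicate 2. Pdha1 was at 469 and 447 CPM with PBS, 594 and 545 with BMP2, and 629 and 601 with BMP2+DM, with both BMP2 libraries above both PBS libraries. With BMP2+DM against BMP2, 2 of 13 were called, both higher: Pdk2 (0.45 ± 0.11) and Pdk4 (0.35 ± 0.11), kinases that restrain the complex. Pdk2 lost its call at 0.36 without BMP2 replicate 2 and 0.42 without BMP2+DM replicate 2, and Pdk4 lost its call on leaving out any of the 6 libraries, at 0.25 to 0.46, and in DESeq2. With BMP2+DM against PBS 7 of 13 were called, all higher, with Dld at 0.44 ± 0.05, Pdha1 at 0.43 ± 0.05 and Dlat at 0.43 ± 0.06.

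Of 7 further HIF subunit and oxygen sensing genes, 2 were called with BMP2, both lower. Epas1, which encodes HIF-2α, a subunit most abundant in endothelial and other non-muscle cells, was at 169 and 166 CPM with PBS, 88 and 90.3 with BMP2, and 101 and 88.5 with BMP2+DM. All 4 libraries given BMP2 lay far below PBS, with a change of −0.91 ± 0.08 with BMP2 (adjusted p = 2.2e-07) and −0.82 ± 0.08 with BMP2+DM against PBS (adjusted p = 4.65e-07). Both calls held in all 14 alternatives. The endothelial marker sum was 545 to 552 CPM with PBS, 498 to 516 with BMP2 and 348 to 390.0 with BMP2+DM, and its part in the change of Epas1 was not tested. Arnt2, a neural relative of ARNT, was lower with BMP2 (−0.50 ± 0.15) and lost that call at −0.62 to −0.40 without any 1 of the 4 libraries compared, and in DESeq2. It was higher with BMP2+DM against BMP2 (0.53 ± 0.16), lost at 0.53 without PBS replicate 1, 0.53 without PBS replicate 2, 0.42 without BMP2 replicate 1, 0.64 without BMP2 replicate 2 and 0.38 without BMP2+DM replicate 2, and in DESeq2. Arnt (−0.16 ± 0.08) did not pass with BMP2.

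The 22 other HIF targets moved in both directions, with 4 higher and 6 lower with BMP2 (median −0.04), 1 higher and 3 lower with BMP2+DM against BMP2, and 3 higher and 6 lower with BMP2+DM against PBS. Tmem45a was at 59.7 and 61 CPM with PBS, 106 and 98.5 with BMP2, and 72 and 71.9 with BMP2+DM and was highest with BMP2 (0.76 ± 0.09, and −0.51 ± 0.09 with dorsomorphin added). Cited2, which encodes an inhibitor of HIF-1 transactivation that HIF-1 induces, changed by −0.55 ± 0.08 with BMP2. The genes called higher with BMP2 were Tmem45a (0.76 ± 0.09), Mif (0.45 ± 0.07), Gys1 (0.34 ± 0.07) and Vegfa (0.25 ± 0.06). The 6 lower ones included, besides Cited2, Ccng2 (−0.93 ± 0.14), Bnip3l (−0.53 ± 0.11), Plod1 (−0.49 ± 0.08) and Lox (−0.39 ± 0.06). Those called with dorsomorphin added included Tmem45a (−0.51 ± 0.09) and Mif (−0.30 ± 0.07) as lower and Lox (0.20 ± 0.06) as higher. Above PBS with BMP2+DM were Gys1 (0.46 ± 0.07), Stc2 (0.78 ± 0.18) and Ero1l (0.31 ± 0.09). The 6 below PBS included Ccng2 (−0.84 ± 0.14), Plod1 (−0.54 ± 0.08), Bnip3l (−0.50 ± 0.11) and Cited2 (−0.39 ± 0.08). Calls lost without single libraries were, with BMP2, Gys1 (0.27 without BMP2 replicate 1) and Vegfa (0.25 without any 1 of the 4 libraries compared), with dorsomorphin added Mif (−0.29 without BMP2 replicate 1, −0.31 without BMP2 replicate 2 and −0.25 without BMP2+DM replicate 1) and Lox (0.16 without BMP2 replicate 1, 0.24 without BMP2 replicate 2 and 0.16 without BMP2+DM replicate 1), and against PBS Stc2 (0.66 without PBS replicate 2) and Ero1l (0.32 without PBS replicate 1, 0.30 without PBS replicate 2 and 0.29 without BMP2+DM replicate 2). Other alternatives took further calls. Without the 2 libraries high in ribosomal-repeat reads, Ccng2, Bnip3l and Plod1 lost theirs with BMP2, and against a minimum fold of 1.2 Lox did. Tmem45a with dorsomorphin added and Bnip3l with BMP2+DM against PBS lost theirs under both alternatives. Cited2 with BMP2+DM against PBS did so against the minimum fold. Names beyond the first 3 by p were taken after their values were seen. Of 17 other isoforms and branch enzymes of glycolysis, 10 were tested. Tigar, a phosphatase that diverts glucose to the pentose phosphate pathway, was higher with BMP2 (0.62 ± 0.14), lost at 0.57 without PBS replicate 2, and was the 1 gene of that list that was called. With BMP2+DM against BMP2, Bsg, the chaperone of both lactate transporters, was higher (0.26 ± 0.05), a call lost at 0.20 without BMP2 replicate 2, and Bpgm, which makes the effector of haemoglobin's oxygen affinity, was lower (−0.74 ± 0.17), lost at −0.73 without BMP2 replicate 1 and −0.65 without BMP2+DM replicate 2. Against PBS, BMP2+DM gave 3 higher and 1 lower of the 10. The higher ones were Tigar (0.91 ± 0.14), Pfkfb2 (0.54 ± 0.17) and Bsg (0.15 ± 0.05), and the lower one was Bpgm (−0.53 ± 0.17). Without single libraries Pfkfb2 (0.66 without PBS replicate 1, 0.43 without PBS replicate 2 and 0.42 without BMP2+DM replicate 2), Bsg (0.14 without PBS replicate 1, 0.16 without PBS replicate 2, 0.15 without BMP2 replicate 1, 0.15 without BMP2 replicate 2, 0.18 without BMP2+DM replicate 1 and 0.12 without BMP2+DM replicate 2) and Bpgm (−0.64 to −0.44 without any 1 of the 4 libraries compared) were not called.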

How the data were processed

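The authors deposited, for each library, whole-number read counts by gene symbol without normalization. The submitters' processing notes list mm10, FastQC, Trimmomatic, STAR, HTSeq and DESeq2, with versions, annotation and strand setting not given in the sources used here. In each file 5 summary lines named no gene and were left out (53.8% to 54.2% of each total, mostly reads in no feature). Without known strand counting, reads of antisense models cannot be told apart; such models cover 26.4% of the exonic bases of Ankrd37, 22.5% of Higd1a, 22.2% of Bnip3 and 11.5% of Gpi1.

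The quasi-likelihood test of edgeR 4.0.16 (R version 4.3.3) was fitted on the 6 libraries with 3 group means and 3 residual degrees of freedom, after TMM scaling and filterByExpr (minimum count 10, minimum total 15). This test moderates the spread of each gene by that of all tested genes, so its p-values rest on more than the gene's own 3 residual degrees of freedom. P-values were adjusted by Benjamini-Hochberg over 14378 genes, with a threshold of 0.05. A change is a log2 fold change ± its standard error, the change over the square root of F. The script was tested on simulated data. Replicates differed by more than sampling noise (chi-square per degree of freedom 3.58 to 4.27) and were counted separately. RPKM used exon-union lengths of GENCODE vM21, which held 31424 of 32245 symbols (97.5%) and all members. Alternatives were DESeq2 1.42.0, RLE factors, no filter, a minimum fold, a replicate block and fits without libraries. By rule, every member is accounted for, and of each further pathway list up to 3 genes with the smallest p in a comparison are named, except items that are not reported here. The members and lists were chosen with earlier results of these data known.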

Additional observations from a re-analysis of the deposited data

How the results depend on the processing

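No member's called change reversed in any of 14 alternatives. Calls held in all of them for 2 of 22 members with BMP2 against PBS (Adm and Pgam1), 3 of 13 with BMP2+DM against BMP2 (Adm, Ddit4 and Slc16a3) and 5 of 16 with BMP2+DM against PBS (Hif1a, Hk1, Ldhb, Slc16a3 and Slc2a4). RLE size factors, no filter on low counts, a fit of only the compared groups, ribosomal-repeat models left out of library sizes and DESeq2 each kept every count of called members within 1.5 times. Leaving out PBS replicate 1 and BMP2 replicate 1 together gave 7 members higher and 1 lower for BMP2 against PBS (with 7 enzymes higher), 1 higher and 6 lower for BMP2+DM against BMP2, and 8 higher and 2 lower for BMP2+DM against PBS; fewer samples enter that fit. A minimum fold of 1.2 gave 4 higher and 1 lower (with 2 enzymes higher), 1 higher and 2 lower (with 0 enzymes lower), and 4 higher and 1 lower in the same order. Without 1 library, counts ranged over 12 to 18 members higher and 2 to 4 lower for BMP2 against PBS, 1 to 4 higher and 7 to 9 lower for BMP2+DM against BMP2, and 7 to 12 higher and 2 to 4 lower for BMP2+DM against PBS. In fits without 1 library its group's lone sample is assumed to vary like the others. With the replicate number as a block, 18 and 4, 4 and 10, and 13 and 4 members were higher and lower. Differences between replicates 1 and 2 were nearly uncorrelated between groups (correlations 0.08, −0.03 and −0.0030). PBS replicate 1 and BMP2 replicate 1 were, however, both high in ribosomal-repeat reads. These values cannot show whether same-numbered libraries shared a culture or a batch. Depth limits Ankrd37, Car9, Aldoc, Pfkfb4 and Ndrg1, whose counts stayed at or below 119 per library.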
